A study of Mus musculus with 24 samples.

Results

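The proteasome genes were described here, taken as every gene of the mRNA table whose symbol was Psma, Psmb, Psmc, Psmd, Psme, Psmf or Psmg followed by a number and at most 1 letter. The rule found 49 of 36096 genes. They comprised 19 genes of the core particle (Psma and Psmb), 6 ATPases of the base (Psmc), 14 Psmd genes, and 10 activators, inhibitors and core chaperones (Psme, Psmf and Psmg). The rule used names and no measured value.

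The 26S proteasome is the ATP-dependent protease that degrades ubiquitin-tagged proteins. Its 20S core is a barrel of outer alpha rings and inner beta rings, and the beta rings carry the active sites. The 19S cap opens the core with a base of ATPases and removes ubiquitin with a lid, while assembly chaperones build the particle and are not part of the finished one. In neurons the proteasome takes part in synaptic protein turnover, and in immune cells interferon induces alternative beta subunits that change which peptides are made for antigen presentation.

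Medial frontal cortex of C57BL/6J mice was sampled at postnatal day 28 in 4 groups of 3 libraries. Control males (CM) and control females (CF) carried Emx1-cre, and the other 2 groups, males (DM) and females (DF), were offspring of an Emx1-cre and Dnmt3l conditional knock-in cross and are called Dnmt3l. Cre was thus shared by all groups. Emx1-cre drives recombination in the dorsal forebrain lineage of excitatory neurons and much of the glia, so that interneurons, microglia and vessel cells in the same tissue keep the unrecombined allele. The libraries were depleted of ribosomal RNA, and each held 22144970 to 32100277 mRNA counts, with the 6 Dnmt3l libraries (22144970 to 26842726) below the 6 controls (27074837 to 32100277). The labels do not say whether the 3 libraries of a group came from separate mice, so the spread behind every p-value is that of the samples as deposited and could be technical.

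Dnmt3l, the catalytically inactive cofactor of de novo DNA methyltransferases, had 1, 1 and 0 counts in control males, 0, 0 and 3 in control females, 603, 609 and 521 in Dnmt3l males and 1179, 532 and 600 in Dnmt3l females. Dnmt3l female 1 (DF1) thus had the highest Dnmt3l count, yet it stood apart from the other 5 Dnmt3l libraries and near the controls in most measures below. Mitochondrial transcripts took 3.73% of its counts, between the controls (2.63% to 3.59%) and the remaining Dnmt3l libraries (5.57% to 7.30%). Alb, a liver transcript, was at 1078, 1328 and 1297 counts in CM3, CF1 and CF2 and at 1 to 12 counts in the other 9 libraries. Results are therefore also given without DF1 and without those 3 controls. Without those 3, CF3 is the only control female, so a call lost there cannot be told apart from the effect of fewer libraries. In tissue RNA of this kind, fewer cells of a type and less RNA per cell cannot be told apart.

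Of the 49 members, 47 passed the filter on low values (0.5 FPKM, fragments scaled to transcript length and library total, in at least 3 libraries). The other 2, Psma8 and Psmb11, code for core subunits known from testis and thymus. Psma8 had 11, 6 and 5 counts in males and 8, 2 and 5 in females of the control group, and 2, 5 and 1 in males and 11, 2 and 4 in females of the Dnmt3l group. Psmb11 had 1, 18 and 3 counts in males and 3, 5 and 7 in females of the control group, and 5, 0 and 0 in males and 6, 1 and 7 in females of the Dnmt3l group. Both were near the limit of detection in every group and were not tested.

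Most proteasome transcripts were lower in Dnmt3l. Averaged over the sexes, 41 of the 47 tested members fell and 0 rose at an adjusted p below 0.05 (edgeR quasi-likelihood test, Benjamini-Hochberg adjustment over 15786 genes), while 43 of 47 and 9187 of 15786 genes had an unadjusted p below 0.05. Among all 15786 genes 26.4% fell and 25.2% rose. The median log2 change was -0.58 over the members and 0.02 over all genes tested. Without TMM scaling, on library totals only, all genes split into 5164 lower and 2834 higher in place of 4160 and 3976, and the members again into 41 and 0. Among the members, 15 had all 6 Dnmt3l libraries below all 6 controls, against 6.83% of all genes, and 1 member, Psme4, had all 6 above, against 5.49%.

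The summed level of the 47 members, in CPM (counts scaled to library size with TMM factors), was 1890.3, 1870.5 and 1829 CPM in males and 1808, 1853 and 1900.0 in females of the control group, and 1231, 1223 and 1241 in males and 1780.4, 1194 and 1231 in females of the Dnmt3l group. The Dnmt3l libraries other than DF1 lay between 1194 and 1241 CPM, and DF1, at 1780.4, lay just below the lowest control at 1808. As a share of all gene counts the members ranged from 0.185% to 0.198% in controls, against 0.113% to 0.120% in DM1, DM2, DM3, DF2 and DF3 and 0.180% for DF1. In single libraries, the number of the 47 members below the lowest control was 43 in DM1 (36.1% of all genes), 41 in DM2 (36.3%), 41 in DM3 (35.5%), 15 in DF1 (20.6%), 42 in DF2 (36.1%) and 42 in DF3 (35%). Leaving DF1 aside, 40 of 47 members had the 5 remaining Dnmt3l libraries below all 6 controls, against 23.7% of all genes, and only Psme4 had them above, against 19.4%.

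**Figure D1:**
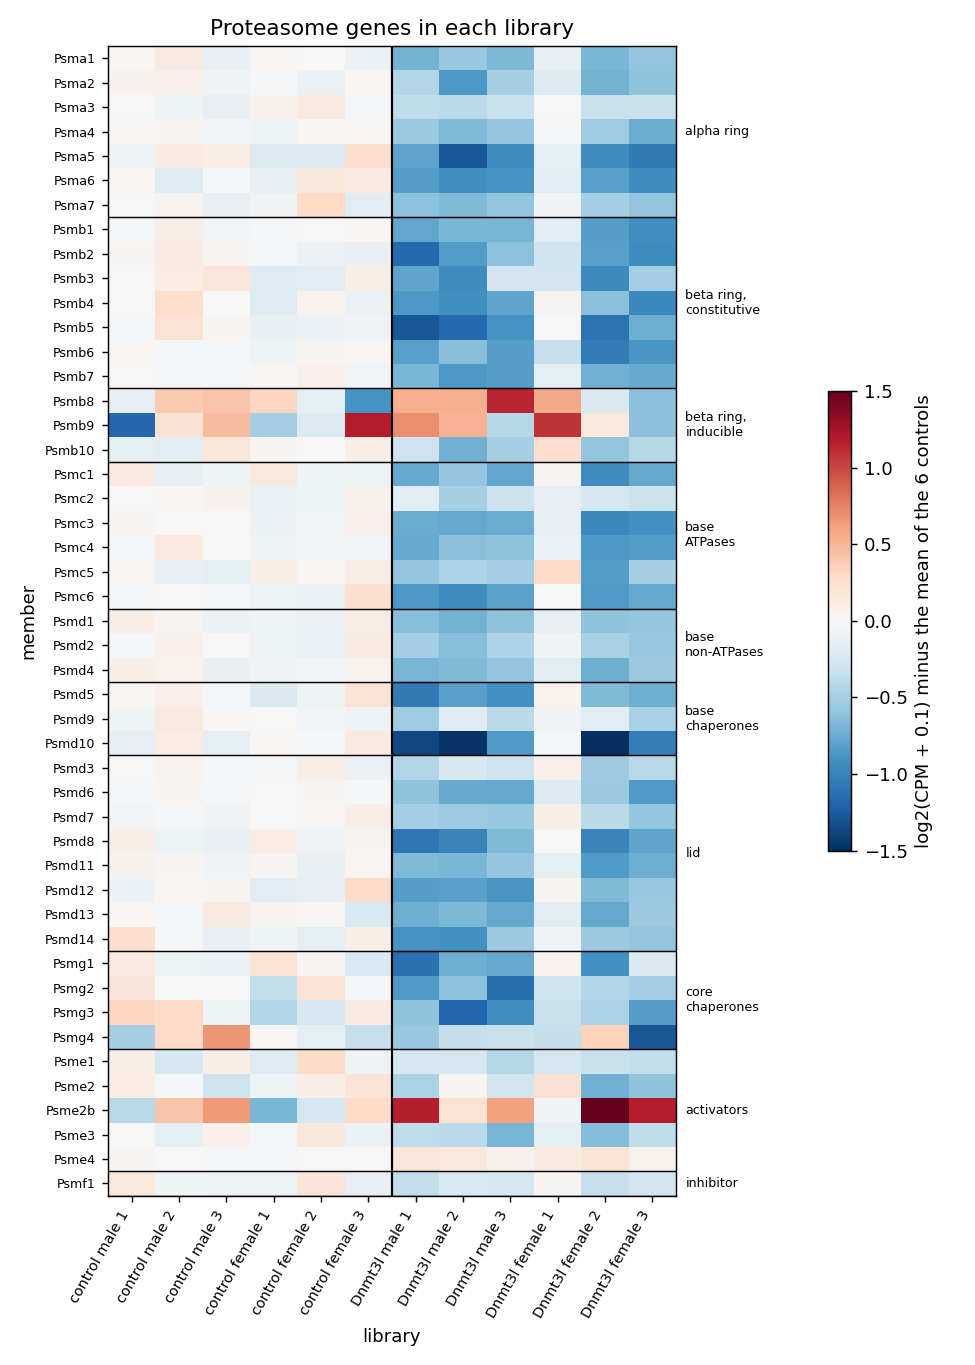
Heat map of the 47 tested members (rows, by class) in the 12 libraries (columns), as log2(CPM + 0.1) minus the mean of the 6 controls, blue below and red above. The Dnmt3l columns other than DF1 are blue in most rows, the DF1 column is near the controls, and Psmb8, Psmb9, Psme2b and Psme4 depart from the rest.

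Without DF1, 42 members fell (32.9% of all genes fell) and 2, Psme2b and Psme4, rose (30.2% rose), and the members' median was -0.70. Without CM3, CF1 and CF2, CF3 was the only control female. The members' median was then -0.61, against 0.005 over all genes, and 44 of 47 members were below 0. Psma3, Psmb10, Psmc5, Psmd3, Psmd9, Psme1, Psme3, Psmf1 and Psmg1 no longer passed the test there. That loss cannot be told apart from the effect of fewer libraries. The members mostly have short transcripts. All genes were ranked by their mean transcript length, weighted by counts, into 4 equal bins. In the bin of shortest transcripts (168 to 1677 bases) 28 of 33 members and 27.6% of genes fell. In the next bin 10 of 10 members and 29.2% of genes fell, and in the one above it 3 of 3 and 26.3%. Psme4, the only member of the bin of longest transcripts, did not fall, where 22.4% of genes did. With an offset for transcript length in each library, 37 members and 26.1% of all genes fell, with medians of -0.48 and 0.02.

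Promoter sequences are shown because 41 genes of 1 machine fell together, and a shared response element is known for this family. When proteasome activity drops, the factor Nfe2l1 binds with small Maf partners to the antioxidant response element, TGACNNNGC, in promoters of subunit genes. RefSeq promoters (GRCm38.p6, 250 bases before to 50 after the start) were matched by symbol for 41 of the 49 members, with 44 windows in all. On either strand, TGACNNNGC occurred in 6 of 41 members, 14.6%, against 14% of 27025 genes and 16.5% of the 11485 tested genes with a promoter. The 6 stretches follow, on the gene's strand, with the 9 matching bases in capitals.
Psmb5: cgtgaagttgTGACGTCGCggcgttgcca
Psmb6: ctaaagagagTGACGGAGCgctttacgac
Psmc6: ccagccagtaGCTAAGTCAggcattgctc
Psmd9: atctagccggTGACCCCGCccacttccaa
Psmd12: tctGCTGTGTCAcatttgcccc
Psme4: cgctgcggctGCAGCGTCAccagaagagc
They lie at chr14:54618024-54618052 (minus strand), chr11:70525338-70525366 (plus), chr14:45329587-45329615 (plus), chr5:123228149-123228177 (plus), chr11:107479278-107479299 (plus) and chr11:30771758-30771786 (plus). In Psmb5, Psmb6 and Psmd9 the motif reads on the gene's strand, and in Psmc6, Psmd12 and Psme4 on the other. Its first base lay 47 bases before the start in Psmb5, 9 in Psmb6, 227 in Psmc6, 31 in Psmd9, 247 in Psmd12 and 7 in Psme4. Of these 6 genes 5 fell, where 41 of all 47 tested members and 26.4% of all genes did. Psme4 is the member whose Dnmt3l libraries were all above the controls. A link between the motif and the fall was not tested.

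Other motifs were also searched on both strands. CCAAT, the box bound by NF-Y, occurred in 14 of 41 members, 34.1%, against 41.1% of all genes and 42.9% of tested genes. GGGCGG, the Sp1 box, occurred in 56.1% of members, 38.2% of all genes and 66.5% of tested genes. CACGTG occurred in 9.76%, 8.09% and 11.2%, and TCGCGA in 2.44%, 2.86% and 5.38%. Over the 300 bases none of these motifs was more frequent in the members than in the tested genes. Within 100 bases before the start TGACNNNGC occurred in 7.32% of members and 6.96% of tested genes. The median number of CG dinucleotides per window was 19 in members, 20 in tested genes and 7 in all genes. Dnmt3l acts on DNA methylation, but methylation was not analysed here.

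The promoters of 2 lid genes are shown in full, from a class in which all 8 members fell. Capitals mark TGACNNNGC and CCAAT on either strand. The Psmd12 window is chr11:107479278-107479577 (plus strand) and holds 1 match to TGACNNNGC and none to CCAAT. The Psmd14 window is chr2:61711444-61711743 (plus strand) and holds 3 matches to CCAAT, of which 2 overlap just after the start.
Psmd12: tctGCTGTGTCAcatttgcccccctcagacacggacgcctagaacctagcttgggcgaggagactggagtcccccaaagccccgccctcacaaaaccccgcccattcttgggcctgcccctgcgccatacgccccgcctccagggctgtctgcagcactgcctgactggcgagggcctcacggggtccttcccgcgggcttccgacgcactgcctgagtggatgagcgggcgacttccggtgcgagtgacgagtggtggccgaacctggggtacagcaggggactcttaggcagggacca
Psmd14: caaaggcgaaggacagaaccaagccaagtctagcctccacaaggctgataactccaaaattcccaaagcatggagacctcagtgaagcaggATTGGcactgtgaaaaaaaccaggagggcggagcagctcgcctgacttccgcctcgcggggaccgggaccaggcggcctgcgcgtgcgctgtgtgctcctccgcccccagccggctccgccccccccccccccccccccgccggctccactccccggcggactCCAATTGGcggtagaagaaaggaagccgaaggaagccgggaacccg
The promoters of Psmd6, Psmd8, Psmd11 and Psmd13, also of the lid, held neither motif.

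In the 20S core, all 7 tested alpha-ring genes and all 7 constitutive beta-ring genes fell, with median log2 changes of -0.54 and -0.66. For these and the class counts below, 26.4% of all genes fell and 25.2% rose. The alpha ring gates the entry to the barrel. Psma5 showed the largest alpha-ring change. It was at 22.5, 25.96 and 25.5 CPM in males and 20.7, 20.6 and 28.2 in females of the control group, and 13.7, 9.79 and 12.4 in males and 21.4, 12.4 and 11.3 in females of the Dnmt3l group, a log2 change of -0.83 ± 0.15 (SE), adjusted p = 0.000963. All Dnmt3l libraries but DF1 were below every control. Psma3 changed least of the 7 and was at 37.7, 35.96 and 34.3 CPM in males and 39.2, 41.6 and 36.6 in females of the control group, and 28.8, 28.6 and 29.7 in males and 37.7, 29.8 and 29.6 in females of the Dnmt3l group. Its log2 change was -0.29 ± 0.08 (SE), adjusted p = 0.00625, again with DF1 alone inside the control range, and the call was lost with limma on FPKM and without the 3 controls with Alb. Psma6 (-0.75), Psma1 (-0.55), Psma2 (-0.54), Psma7 (-0.50) and Psma4 (-0.50) lay between them on the log2 scale.

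The beta ring holds the proteolytic sites: Psmb6, Psmb7 and Psmb5 code for the caspase-like, trypsin-like and chymotrypsin-like subunits. All 3 catalytic genes fell. Psmb5 (GRCm38 chr14:54614119-54618022, minus strand) was at 21.9, 25.9 and 22.9 CPM in males and 20.6, 20.9 and 21.4 in females of the control group, and 9.13, 9.87 and 11.9 in males and 22.1, 10.3 and 13.4 in females of the Dnmt3l group. DF1 was inside the control range and the other 5 libraries were at 13.4 CPM or less, below the lowest control at 20.6. The log2 change was -0.82 ± 0.15 (SE), adjusted p = 0.000876, and -0.74 (adjusted p = 0.000293) for Psmb6 and -0.65 (adjusted p = 0.000395) for Psmb7. Of these, Psmb6 and Psmb7 separated all 6 Dnmt3l libraries from all 6 controls. The smallest change of the constitutive beta genes was in Psmb3, a structural subunit, at 24.6, 26.8 and 28.1 CPM in males and 21.7, 22.02 and 26.3 in females of the control group, and 14.3, 12.9 and 20.3 in males and 20.2, 12.8 and 17.4 in females of the Dnmt3l group. It gave -0.61 ± 0.13 (SE), adjusted p = 0.00211, with no overlap between genotypes. Psmb2 fell by 0.76, Psmb4 by 0.66 and Psmb1 by 0.66 on the log2 scale. Per length, Psmb6 was the most abundant core transcript, going from 90.4 to 49.8 FPKM on average.

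The inducible beta subunits replace the constitutive catalytic ones in immunoproteasomes. They fell in 1 of 3 tested genes, a share (33.3%) near the 26.4% of all genes. Psmb10 was at 8.86, 8.71 and 11.003 CPM in males and 9.98, 9.65 and 10.4 in females of the control group, and 7.83, 5.84 and 6.86 in males and 11.6, 6.41 and 7.23 in females of the Dnmt3l group. DF1 was above every control and the other 5 Dnmt3l libraries were below every control, with a log2 change of -0.36 ± 0.14 (SE), adjusted p = 0.0485. That call was lost when any 1 of 9 libraries was left out (every library except CM2, DM1 and DF1), with upper-quartile scaling, with the length offset and without the 3 controls with Alb. Psmb8 was at 0.588, 0.884 and 0.907 CPM in males and 0.832, 0.581 and 0.306 in females of the control group, and 0.985, 0.987 and 1.55 in males and 1.01, 0.542 and 0.385 in females of the Dnmt3l group. The 3 Dnmt3l males and DF1 lay above all controls and DF2 and DF3 within them, and the log2 change was 0.37 ± 0.33 (SE), adjusted p = 0.367. Psmb9 was at 0.173, 0.622 and 0.756 CPM in males and 0.333, 0.436 and 1.29 in females of the control group, and 0.895, 0.781 and 0.357 in males and 1.204, 0.587 and 0.299 in females of the Dnmt3l group, and every Dnmt3l library was inside the control range. Its log2 change was 0.20 ± 0.48 (SE), adjusted p = 0.749, and it turned to -0.15 without DF1. Per length, Psmb8 (0.915 FPKM) and Psmb9 (0.708 FPKM) were the lowest tested core genes in controls, while Psmb10 was at 15.7 FPKM and Psmb5 at 35.3 FPKM.

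In the base of the cap, all 6 ATPases, which unfold and feed substrates, fell, with a median log2 change of -0.60. Psmc3 showed the largest change and was at 95.5, 93.5 and 93.6 CPM in males and 87.4, 90.1 and 98.01 in females of the control group, and 55.7, 54.5 and 55.5 in males and 85.3, 47.3 and 49.6 in females of the Dnmt3l group. No Dnmt3l library reached the lowest control, although DF1 came within 3 CPM of it, and the log2 change was -0.68 ± 0.12 (SE), adjusted p = 0.000753. Psmc2 changed least and was at 69.3, 70.9 and 72.7 CPM in males and 64.7, 66.1 and 72.6 in females of the control group, and 61.9, 49.2 and 55.2 in males and 63.9, 57.9 and 55.5 in females of the Dnmt3l group. The genotypes did not overlap here either, at -0.28 ± 0.07 (SE), adjusted p = 0.00544. Psmc6 (-0.68), Psmc4 (-0.61), Psmc1 (-0.60) and Psmc5 (-0.40) completed the ring on the log2 scale. The Psmc5 call was lost without any 1 of CM1, CF1, CF3, DM1, DM3, DF2 or DF3, with the length offset and without the 3 controls with Alb. Psmc6 was the most abundant member per length, going from 104 to 64.7 FPKM.

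The 3 other base subunits comprise a ubiquitin receptor and scaffold subunits, and all 3 fell (median -0.54). Psmd4, a ubiquitin receptor, was at 59.99, 58.4 and 52.1 CPM in males and 54.3, 54.5 and 58.2 in females of the control group, and 34.5, 35.4 and 37.3 in males and 49.8, 33.9 and 38.2 in females of the Dnmt3l group, with no overlap. Its log2 change was -0.56 ± 0.09 (SE), adjusted p = 0.000443. Psmd2, a scaffold subunit, was at 118, 126 and 120.0 CPM in males and 114, 113 and 131 in females of the control group, and 84.4, 77.2 and 87.01 in males and 115, 85.9 and 81.2 in females of the Dnmt3l group, with DF1 in the control range and a log2 change of -0.45 ± 0.09 (SE), adjusted p = 0.00124. Psmd1, the other scaffold, separated the genotypes with a log2 change of -0.54.

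All 8 lid genes fell, with a median of -0.60. Psmd8 showed the largest lid change and was at 70.6, 63.02 and 61.3 CPM in males and 71.8, 64.2 and 68.6 in females of the control group, and 31.2, 33.2 and 41.8 in males and 66.3, 33.5 and 38.5 in females of the Dnmt3l group. DF1 was inside the control range and the other 5 libraries were at 41.8 CPM or less, below the lowest control at 61.3, and the log2 change was -0.72 ± 0.14 (SE), adjusted p = 0.00137. Psmd14, the deubiquitinase that cuts ubiquitin chains off the substrate, was at 28.4, 23.4 and 21.9 CPM in males and 22.8, 21.7 and 25.4 in females of the control group, and 12.9, 12.7 and 16.1 in males and 22.9, 16.2 and 15.8 in females of the Dnmt3l group. It gave -0.58 ± 0.11 (SE), adjusted p = 0.00121, also with DF1 alone among the controls. Psmd3 changed least and was at 99.3, 103 and 96.7 CPM in males and 97.4, 105 and 92.8 in females of the control group, and 73.2, 84.1 and 79.6 in males and 104, 67.8 and 74.2 in females of the Dnmt3l group. DF1 again lay within the controls and the other 5 below them, with a log2 change of -0.30 ± 0.09 (SE), adjusted p = 0.0181. Psmd6 and Psmd11 (-0.61 and -0.60) separated all libraries of the genotypes. Psmd12, Psmd13 and Psmd7 were at -0.61, -0.60 and -0.41 on the same log2 scale.

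**Figure D2:**
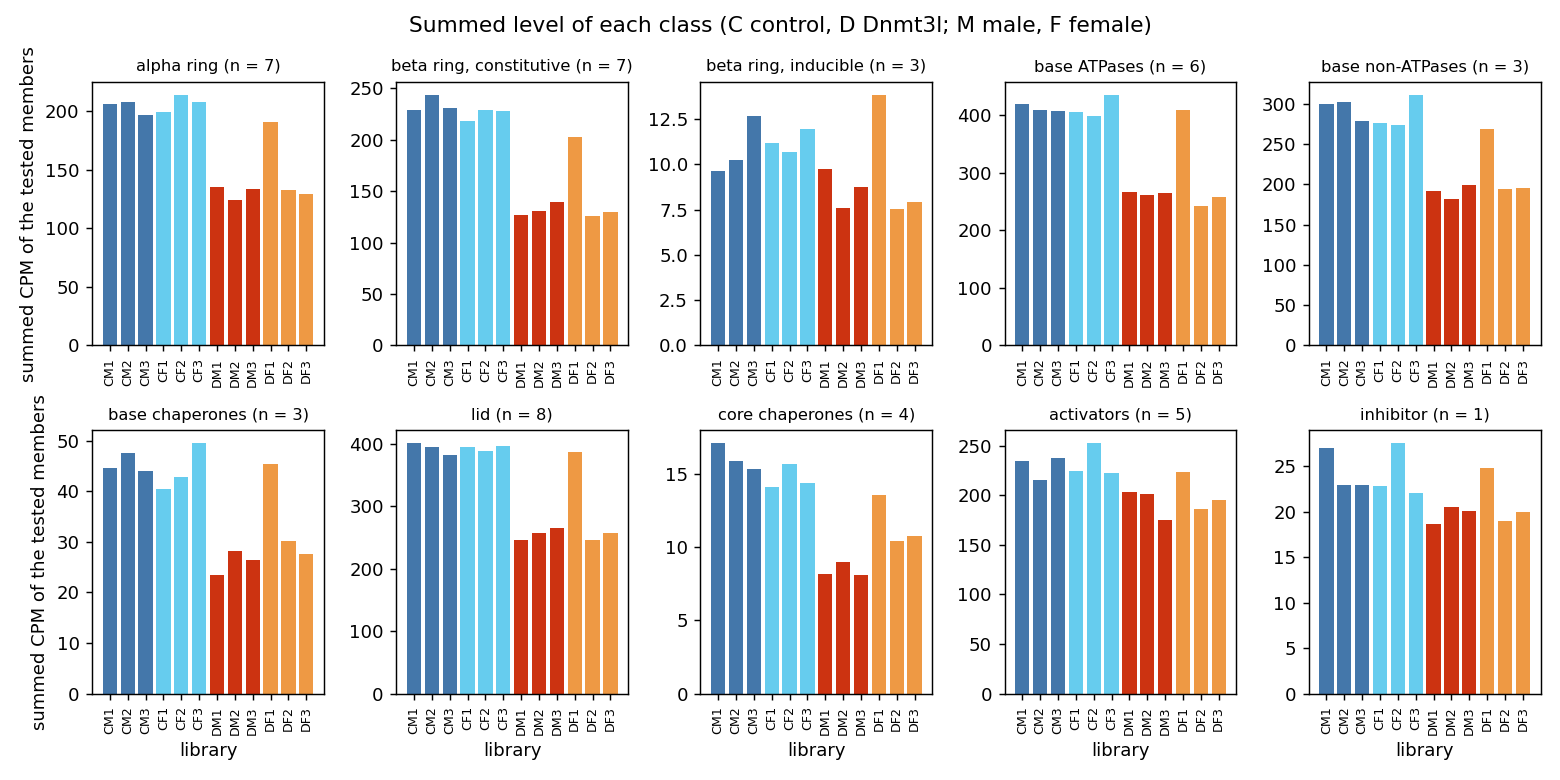
Summed CPM of the tested members of each class (bars, 1 per library; linear axes from 0; blue controls, red and orange Dnmt3l). The 6 ATPases sum to 398 to 435 CPM in controls and to 242 to 266 CPM in Dnmt3l, except for 409 CPM in DF1, while the inducible beta subunits sum to less than 14 CPM in every library.

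The chaperones that assemble the particle mostly fell as well. All 3 chaperones of the base fell. Psmd10, also known as gankyrin, showed the largest change of any member that passed the test. It was at 2.61, 3.09 and 2.60 CPM in males and 2.93, 2.81 and 3.14 in females of the control group, and 1.05, 0.966 and 1.55 in males and 2.80, 0.903 and 1.35 in females of the Dnmt3l group, with DF1 alone in the control range, and its log2 change was -0.998 ± 0.25 (SE), adjusted p = 0.00483. Psmd9 changed least of the 3. It was at 10.8, 12.3 and 11.4 CPM in males and 11.2, 10.9 and 10.8 in females of the control group, and 7.74, 9.87 and 8.45 in males and 10.8, 9.98 and 8.0002 in females of the Dnmt3l group, and DF1 was level with the lowest control, at -0.30 ± 0.10 (SE), adjusted p = 0.0211, a call lost without DM1 (adjusted p = 0.0554). Psmd5, which blocks premature docking of the base, was at -0.67.

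Of the 4 chaperones of the core, 3 fell. Psmg3 was at 3.91, 3.80 and 2.96 CPM in males and 2.26, 2.61 and 3.40 in females of the control group, and 2.01, 1.32 and 1.59 in males and 2.45, 2.21 and 1.71 in females of the Dnmt3l group. All Dnmt3l libraries but DF1 were below the lowest control, DF2 by a narrow margin, and the log2 change was -0.75 ± 0.18 (SE), adjusted p = 0.00442. Psmg1 and Psmg2, which pair to scaffold the alpha ring, were at -0.60 and -0.66. Psmg4 was at 0.658, 1.21 and 1.60 CPM in males and 0.998, 0.871 and 0.748 in females of the control group, and 0.627, 0.740 and 0.754 in males and 0.738, 1.26 and 0.342 in females of the Dnmt3l group, with overlapping groups, and did not pass the test (-0.44 ± 0.33 SE, adjusted p = 0.281).

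The activators, which cap the core in place of the 19S particle, were mixed, with a median of -0.27. Here 2 of 5 fell and 0 rose (40% and 0%, against 26.4% and 25.2% of all genes). Psme1, which forms the interferon-inducible 11S ring with Psme2, was at 21.6, 17.1 and 21.7 CPM in males and 17.6, 24.4 and 19.4 in females of the control group, and 16.8, 16.9 and 14.9 in males and 16.97, 15.98 and 15.6 in females of the Dnmt3l group. Every Dnmt3l library was below every control, with a log2 change of -0.33 ± 0.10 (SE), adjusted p = 0.0131, although the call was lost with the length offset and without the 3 controls with Alb. Psme2 was at 5.61, 5.10 and 4.14 CPM in males and 4.93, 5.55 and 5.91 in females of the control group, and 3.70, 5.31 and 4.26 in males and 6.09, 3.11 and 3.36 in females of the Dnmt3l group. Its groups overlapped (-0.27 ± 0.17 SE, adjusted p = 0.218), but without DF1 it passed the test at -0.47, adjusted p = 0.00887 (edgeR). Psme3, the nuclear 11S activator, fell by 0.43 on the log2 scale. Psme2b, whose symbol marks it as a copy of Psme2 so that reads may be shared, was at 0.253, 0.531 and 0.634 CPM in males and 0.194, 0.291 and 0.478 in females of the control group, and 0.952, 0.445 and 0.614 in males and 0.354, 1.45 and 0.962 in females of the Dnmt3l group. DM1, DF2 and DF3 were above every control, and the log2 change was 0.98 ± 0.41 (SE), adjusted p = 0.0614. It passed the test without DF1 (adjusted p = 0.0166), with DESeq2's Wald test (adjusted p = 0.0469) and with the length offset (adjusted p = 0.0494).

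Psme4 codes for PA200, the large monomeric activator. It was at 68.9, 67.1 and 65.6 CPM in males and 66.5, 67.5 and 67.3 in females of the control group, and 76.4, 74.97 and 70.4 in males and 73.8, 77.7 and 69.8 in females of the Dnmt3l group. All 6 Dnmt3l libraries were above all 6 controls, DF1 included, but the change was small and did not pass the test (0.14 ± 0.06 SE, adjusted p = 0.0511). It passed with DESeq2's size factors (adjusted p = 0.0465), with upper-quartile scaling (adjusted p = 0.0138), with DESeq2's Wald test (adjusted p = 0.023) and with a filter of 1 FPKM in all libraries (adjusted p = 0.0183). It also passed without DF1 (adjusted p = 0.0466), without DM3 (adjusted p = 0.0489) and without DF3 (adjusted p = 0.0345), and did not with the length offset (adjusted p = 0.401). It was also the member with the longest mean transcript length. Psmf1, the inhibitor PI31, was at 26.97, 22.98 and 22.9 CPM in males and 22.8, 27.6 and 22.1 in females of the control group, and 18.6, 20.5 and 20.1 in males and 24.8, 19.01 and 19.98 in females of the Dnmt3l group. DF1 lay among the controls and the others below, at -0.24 ± 0.09 (SE), adjusted p = 0.0405. That call was lost without any 1 of CM1, CF2, DM1, DM2, DM3, DF2 or DF3, with upper-quartile scaling, with the length offset, with a filter of 1 FPKM in all libraries, with the replicate block (adjusted p = 0.0516) and without the 3 controls with Alb.

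Within males, 36 of 47 members fell and 0 rose (22.7% and 20.4% of all genes), with a median log2 change of -0.70. Within females, 9 fell and 0 rose (4.38% and 4.73% of all genes), with a median of -0.39. The 9 were Psma6, Psmb1, Psmb2, Psmb6, Psmb7, Psmc3, Psmd4, Psmd6 and Psmd11. The female count changed with every library left out. Without DF1, 38 members fell in females and 1 rose (25.4% and 21.9% of all genes), with a median of -0.64. Without any 1 of the other 11 libraries 0 or 1 fell, where 0.0319% to 1.32% of all genes fell. Without the 3 controls with Alb, which left 1 control female, the members' median in females was -0.49. Psmb5 was at -1.19 in males, -0.46 in females (adjusted p = 0.145) and -0.84 in females without DF1 (adjusted p = 0.000179). The member that rose in females without DF1 was Psme2b, at 1.86.

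The test of the difference between the sexes called no member. The male effect minus the female effect passed for 0 of 47 members and 0% of all genes in edgeR, with 2 members and 1120 of 15786 genes at an unadjusted p below 0.05, and without DF1 it again passed for 0 members. DESeq2 and limma also called 0 members. Between control females and control males, 0 members passed and 0 had an unadjusted p below 0.05, against 0.0253% of all genes called.

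**Figure D3:**
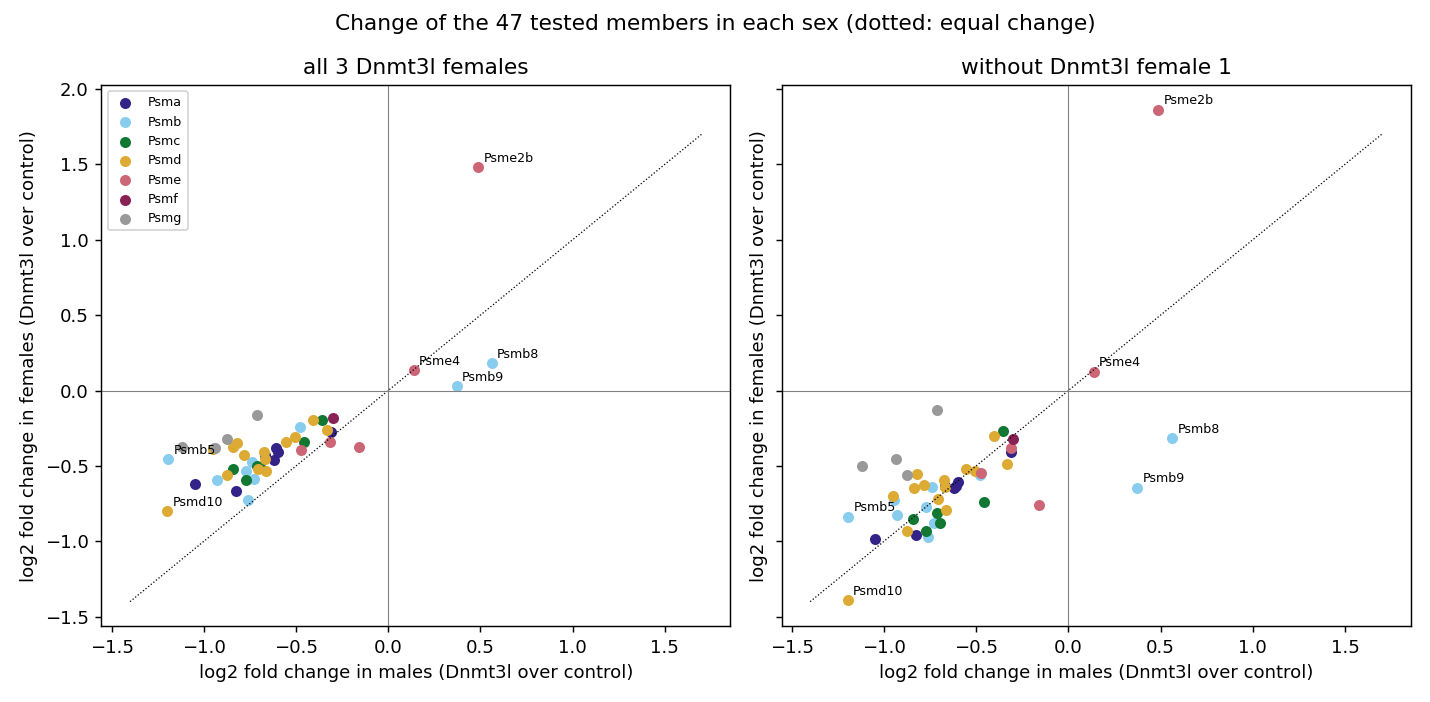
Log2 fold change of each tested member in males (horizontal axis) and females (vertical axis), with all 3 Dnmt3l females on the left and without DF1 on the right; points are coloured by gene family and the dotted line marks equal change. The cloud lies above the line on the left (medians -0.70 in males and -0.39 in females) and along it on the right (female median -0.64).

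The authors' table splits expected counts over 275 transcripts of the 49 members, and 16 of the 47 tested members had 2 or more transcripts with at least 20% of the gene's counts each. A fit over all 54587 transcripts that passed the filter, added after the gene values were seen, called 43 transcripts of members lower and 4 higher of 174 tested, against 9.19% lower and 4.78% higher among all transcripts. How reads shared by transcripts were divided is an estimate whose error this test does not include.

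Psmc2 showed opposite changes in its 2 transcripts. The 1775-base one (ENSMUST00000239497) was at 44.97, 49.7 and 48.3 CPM in males and 40.8, 45.2 and 50.6 in females of the control group, and 27.6, 19.9 and 23.4 in males and 37.8, 20.5 and 24.04 in females of the Dnmt3l group. The 3466-base one (ENSMUST00000132720) was at 24.3, 21.2 and 24.4 CPM in males and 23.9, 20.9 and 22.1 in females of the control group, and 34.3, 29.3 and 31.8 in males and 26.1, 37.5 and 31.4 in females of the Dnmt3l group. All 6 Dnmt3l libraries were below all controls for the shorter (-0.996 ± 0.16 SE, adjusted p = 0.00644) and above all controls for the longer (0.34 ± 0.09 SE, adjusted p = 0.0306). The share of the shorter transcript went from 67.1% ± 2.78 (SD, n = 6) to 44.2% ± 8.04 (SD, n = 6), with DF1 at 59.2%. The small change of the Psmc2 gene thus summed a fall and a rise.

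Among the 16 members, Psmc2 was the only one in which 1 of these transcripts fell and another rose. In 9 members (Psma2, Psmb1, Psmc4, Psmc6, Psmd5, Psmd10, Psmd13, Psme1 and Psmf1) 1 fell and no other passed the test, in Psmd11 and Psmd12 both fell, and in 4 (Psmb9, Psmb10, Psmg3 and Psmg4) none passed. The difference between transcripts of a gene was not tested. Psmb1, Psma2 and Psmd5 are described here, chosen after their values were seen. In Psmb1 the 1758-base transcript fell (-1.24 ± 0.24 SE, adjusted p = 0.00956) and the 1970-base one was at 0.20 ± 0.16 (SE), adjusted p = 0.452. The share of the former was 80.1% ± 4.01 (SD, n = 6) in controls and 56.8% ± 11.3 (SD, n = 6) in Dnmt3l, with DF1 at 78.4%. In Psma2 the 2911-base transcript fell (-1.05 ± 0.20 SE, adjusted p = 0.00922) and the 1353-base one was at -0.07 ± 0.18 (SE), adjusted p = 0.832, and in Psmd5 the 4397-base transcript fell (-1.11 ± 0.21 SE, adjusted p = 0.00852) and the 3406-base one was at 0.07 ± 0.18 (SE), adjusted p = 0.846. The longer transcript was the one that fell in Psma2 and Psmd5, and the shorter one in Psmc2 and Psmb1. The transcripts of Psmd11, of 2848 and 1626 bases, fell by 0.65 and 1.197, and those of Psmd12, of 1904 and 1311 bases, fell by 0.55 and 1.29. The other 3 transcripts that rose, in Psma3, Psmd14 and Psmd3, held 1.31%, 4.65% and 5.21% of their gene's counts.

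**Figure D4:**
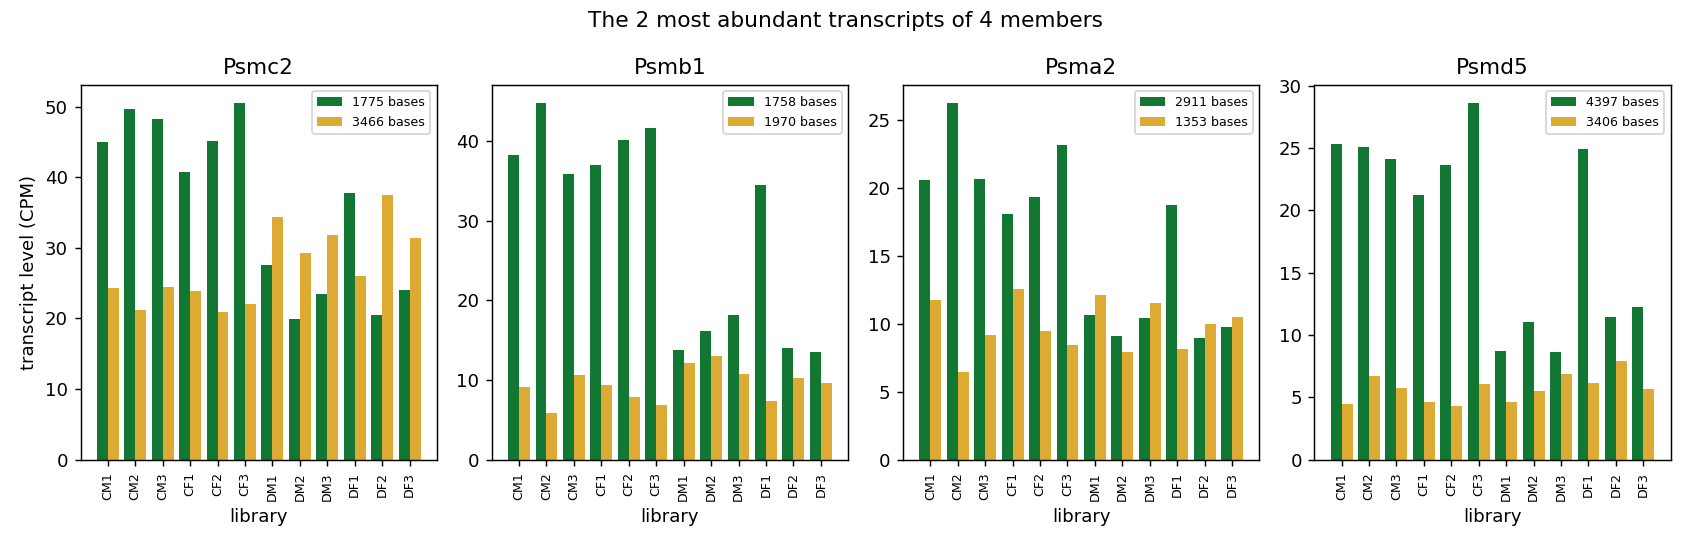
CPM of the most abundant (green) and second most abundant (yellow) transcript of Psmc2, Psmb1, Psma2 and Psmd5 in each library; bars start at 0. The green bars drop in 5 of 6 Dnmt3l libraries, with DF1 near the controls, while the yellow bars of Psmc2 are higher in all 6 Dnmt3l libraries.

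Genes that work with the proteasome but fall outside the naming rule also fell for the most part. Of 10 tested partners 8 fell and 0 rose (26.4% and 25.2% of all genes), with a median log2 change of -0.41. Pomp, the chaperone that completes the core, was at 56.1, 52.8 and 56.4 CPM in males and 59.2, 55.01 and 59.3 in females of the control group, and 34.96, 34.1 and 32.6 in males and 56.5, 29.5 and 33.01 in females of the Dnmt3l group, with DF1 in the control range and a log2 change of -0.62 ± 0.13 (SE), adjusted p = 0.00167. Usp14 (-0.67), a deubiquitinase on the cap, Akirin2 (-0.63), which takes proteasomes into the nucleus, and Txnl1 (-0.51), a thioredoxin-like partner of the cap, fell too, each with DM1, DM2, DM3, DF2 and DF3 below all controls and DF1 among them. Ecpas and Fbxo7 did not pass the test.

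Transcription factors known to set proteasome gene levels showed no common direction, with a median of -0.05. Among the 13, 4 fell and 1 rose (30.8% and 7.69%, against 26.4% and 25.2% of all genes). Nfe2l1, the factor of the proteasome recovery response, was at 340.5, 331 and 322 CPM in males and 335, 324 and 341 in females of the control group, and 320.0, 333 and 344 in males and 369, 294 and 334 in females of the Dnmt3l group. The groups overlapped, with a log2 change of 0.00 ± 0.06 (SE), adjusted p = 0.996. Nfe2l2, the related oxidative stress factor, was at -0.05 (adjusted p = 0.75). Keap1, which holds Nfe2l2 in the cytosol, fell by 0.28 (also -0.28 without the 3 controls with Alb, where the call was lost), and Nfyb, a subunit of the CCAAT-binding NF-Y, by 0.46. Hsf1, the heat shock factor, rose by 0.41, with all 6 Dnmt3l libraries above all controls.

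Ubiquitin, the tag itself, comes from several polyubiquitin and fusion genes, and E1 enzymes activate it. Ubb, a polyubiquitin gene, was at 592, 573 and 499 CPM in males and 549, 534 and 532 in females of the control group, and 259, 269 and 334 in males and 535, 248 and 300.1 in females of the Dnmt3l group. DF1 was within the controls and the other 5 were at 334 CPM or less, with a log2 change of -0.76 ± 0.15 (SE), adjusted p = 0.00135. Uba1, the main activating enzyme, fell by 0.44, with no overlap between the groups. Of the 6 tested ubiquitin and E1 genes 4 fell and 1 rose (26.4% and 25.2% of all genes). Their median was -0.39 and their highest log2 change 0.22. Among 11 carriers of ubiquitinated proteins and p97 cofactors 7 fell and 1 rose, against the same shares of all genes. Rad23b was at -0.88, Ubqln2 at -0.60 and Vcp, which codes for p97, at -0.46.

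The COP9 signalosome is a complex related in architecture to the lid that controls cullin ubiquitin ligases. It also fell, in 8 of 9 genes (26.4% of all genes fell), with a median of -0.64. Cops4 (-0.64), Cops6 (-0.70) and Cops8 (-0.72) each separated all libraries of the genotypes, and Cops7b did not pass the test. Genes of class I antigen presentation went the other way, with 5 of 10 higher (25.2% of all genes), 0 lower and a median of 0.35. They included Erap1 (0.45), B2m (0.53) and Tap2 (0.45), which act after the proteasome has cut the peptide. With limma on log2(FPKM + 0.1) Erap1 was at 0.15 (adjusted p = 0.351), and the Tap2 call was lost there (adjusted p = 0.0614). The Tap2 call was also lost without the 3 controls with Alb, at a log2 change of 0.50.

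**Figure D5:**
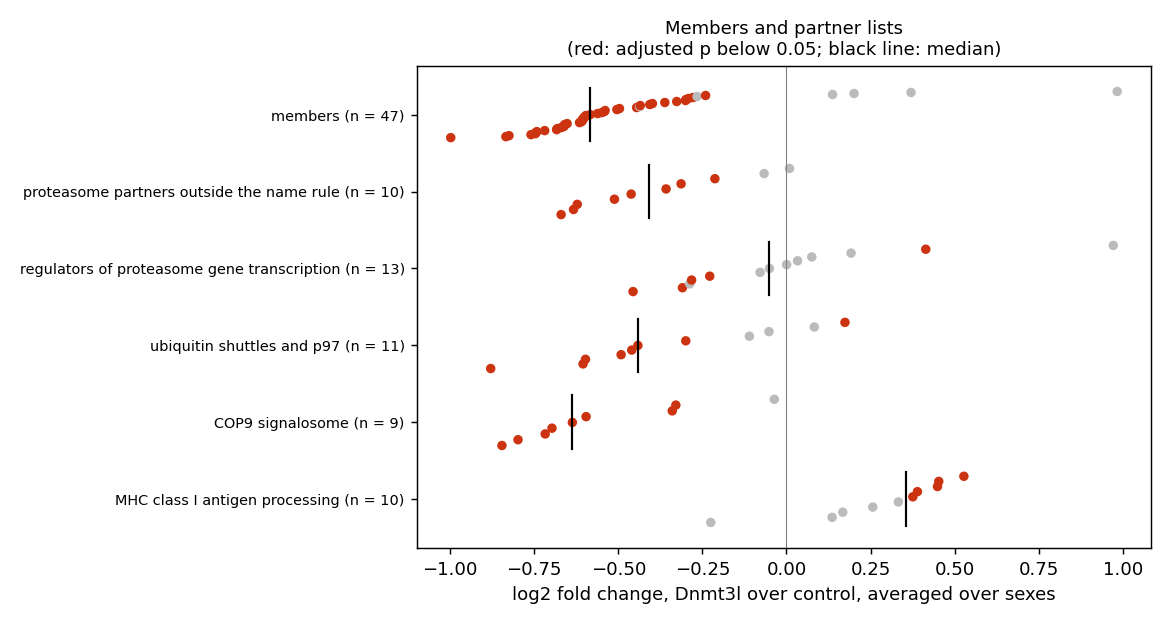
Log2 fold change (Dnmt3l over control, averaged over sexes) of the 47 members and of 5 partner lists; each point is a gene, red where the adjusted p is below 0.05, and the black line is the list's median. Medians are -0.58 for members, -0.64 for the COP9 signalosome, -0.05 for regulators and 0.35 for class I antigen processing.

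Cell type markers also changed, where 25.2% of all genes rose and 26.4% fell. All 6 astrocyte markers rose (summed level 6528 to 7134 CPM in controls, 11133 to 13570.0 in 5 Dnmt3l libraries, DF1 7338), as did 6 of 7 microglial markers (218 to 248 CPM, then 387 to 468, DF1 246) and all 6 endothelial markers (163 to 179.6 CPM, then 304 to 357, DF1 201). Of 5 oligodendrocyte markers 3 rose and 1 fell (summed level 3370 to 6231 CPM in controls, 5970 to 10247 in 5 Dnmt3l libraries, DF1 3269). Of 3 precursor markers 2 rose (141 to 164 CPM, then 238 to 327, DF1 143). Of 8 excitatory neuron markers 2 rose (25%) and 3 fell (37.5%), with a median of -0.33. Their summed levels were 4756 to 5736 CPM in controls and 6159 to 7238 in Dnmt3l. Of 6 interneuron markers 2 rose (33.3%) and 3 fell (50%), at 601 to 688 CPM in controls and 478 to 601 in Dnmt3l. Of 6 lymphocyte markers only Cd4 passed the filter, and the other 5 had 0 to 16 counts in every library. Of 5 red blood cell markers 4 fell (106 to 513 and 72.2 to 218 CPM). The markers' part in the fall of the proteasome genes was not tested.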

How the data were processed

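The members and gene lists were chosen with earlier results of these data known. Per the submitters' processing notes, reads were handled with HISAT2 (2.0.1) and HTSeq (0.6.1) among other tools, on build GRCm38; which tool made which table, and whether strand was used, is not given in the sources. The authors deposited each expected count (an estimated count per transcript) without normalization and FPKM beside it, per the file headers. The deposited circular RNA score is a scaled number of junction reads, truncated to whole numbers by the authors. Expected counts were summed per gene, rounded and tested with edgeR 4.0.16 (TMM, quasi-likelihood, 4 group means of 3 libraries) in R 4.3.3. Transcripts with no gene ID (0.533% to 0.601% of counts) were left out. All 15786 genes with 0.5 FPKM or more in at least 3 libraries were fitted, and values were called at a two-sided Benjamini-Hochberg adjusted p below 0.05. Alternatives used DESeq2 1.42.0, limma 3.58.1, other scalings and filters, a per-library length offset, a replicate block and omitted libraries.

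Members named with every library's value were, per class, the largest and smallest change, plus Psmb5, Psmb8, Psmb9, Psmb10, Psmd14, Psme1, Psme2 and Psmf1. Partners named were up to 3 per list with the smallest adjusted p, plus Nfe2l1, Nfe2l2, Pomp, Ubb and Uba1. Some genes the rule covers are not reported here. Transcripts were named only in genes with 2 or more transcripts above 20%, and 3 lesser ones that rose are given by their gene. Full promoters came from the class with most calls, where ties were settled by the number of members. Of that class only Psmd12 and Psmd14 were printed, and only their promoters held a marked motif. Paaf1 was not found in the table. Long non-coding and small RNA files were not used here.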

Additional observations from a re-analysis of the deposited data

Results flagged for a closer look

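Summed levels of the tested members were examined for single libraries far from the other 5 of their genotype, over all members and in 10 classes, and thus in 22 sets of 6 libraries. In 9 of the 22, all in Dnmt3l and all for DF1, 1 library had a gap to the nearest library above 0.625 of the whole range (Dixon's 95% criterion, which chance passes in about 1 of 20 sets). The 11 sums share libraries and are not independent. DF1 stood at 1780.4 CPM for all members, where the next library was at 1241 CPM. It stood at 191 CPM for the alpha ring, 203 CPM for the constitutive beta ring and 13.8 CPM for the inducible beta subunits. The base ATPases summed to 409 CPM there, the other base subunits to 269 CPM and the base chaperones to 45.3 CPM. The lid summed to 388 CPM and the inhibitor Psmf1 to 24.8 CPM. For the activators and the core chaperones DF1 was also the highest Dnmt3l library, at 223 and 13.6 CPM, without passing the criterion. DF1 had 1179 Dnmt3l counts, more than any other library, and its part in these levels was not tested.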

How the results depend on the processing

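The number of members lower was 41 in the reported fit and stayed within 1.5 times of that under every alternative. Where each group kept 2 or more libraries, it ran from 37 with the length offset (26.1% of all genes) to 42 without DF1 (32.9%). That range leaves out the fit without the 3 controls with Alb, where CF3 was the only control female and the members' median was -0.61. The replicate block gave 40 and lost Psmf1. Of 18 pairs of libraries with the same number, none had deviations correlated above 0.1 (-0.33 to 0.088). With 3 libraries per group, these values cannot settle whether the numbers pair the samples. The number of members higher was 0 in the reported fit. It was 1 with DESeq2's size factors, 1 with upper-quartile scaling, 1 with 1 FPKM in all libraries (all Psme4), 1 with the length offset (Psme2b) and 2 with DESeq2's Wald test (both genes). It ran from 0 to 2 when 1 library was left out. All genes called were 8136, and 4407 without the 3 controls with Alb. Members lower in females were 9 (4.38% of all genes). They were 19 with DESeq2's Wald test (10.2% of all genes), 2 with limma on log2(FPKM + 0.1) (1.55%) and 2 with limma on log2(FPKM + 1) (1.79%). They were 0 when females were fitted alone, a fit for which the share of all genes is not given here. Leaving out 1 library gave 0 to 38 lower (0.0319% to 25.4% of all genes) and 0 to 1 higher in females. The cause was not tested.

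Psmb9 changed sign from 0.20 to -0.05 with limma at either FPKM offset (-0.0538 and -0.0515) and to -0.0823 without the 3 controls, and ran from -0.15 to 0.61 when 1 library was left out. Nfe2l1, at 0.00, was at -0.0917 on library totals, -0.0022 with limma-voom, -0.15 with limma at either offset (-0.1541 and -0.1530), -0.0132 with no filter, -0.0291 with the length offset, -0.0465 without the 3 controls, -0.0006 with the replicate block and -0.0580 to 0.0415 when 1 library was left out. Genes with few counts, such as Psmb8, Psmb9 and Psmg4, have wide errors, and a missing call there does not show equal levels.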

Other observations

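Circular RNAs, closed loops formed when a downstream splice site joins an upstream one, were listed for 9 of the 49 members, 16 of them in all out of 10673. Their values are whole-number scores, whose smallest value above 0 was 10 to 12 in each library, so 1 junction read or a few lie behind most of them. Summed over the 16, the scores lay between 68 and 355 for controls and between 12 and 295 for Dnmt3l. The circular RNA of Psmd2 (GRCm38 chr16:20656543-20657609) had scores of 88, 57 and 15 in control males and 38, 31 and 63 in control females. It was listed at 0 in all Dnmt3l libraries except DF1, where the score was 54. That of Psmc6 (chr14:45334653-45343727) had scores of 29, 51 and 41 in control males, 65, 25 and 121 in control females, 36, 62 and 0 in Dnmt3l males and 54, 0 and 12 in Dnmt3l females. The Psmd2 loop was chosen after its values were seen, and neither was tested. The 5 pseudogenes named after members, such as Psma5-ps, had 0 or 1 counts in every library.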
